A study of Mus musculus with 24 samples.

Results

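Por, Cyb5a, Alas1, Nr1i2, Nr1i3, Ahr, Rxra and Hnf4a are 8 genes behind drug and steroid metabolism in liver, taken by symbol from the deposited table of 21894 genes. They were measured by RNA sequencing in whole liver and whole brain of male C57BL/6J mice, an inbred strain, that ate normal chow and then, from 8 weeks of age, a diet to which selenium had been added at 0 ppm, 0.1 ppm, 0.4 ppm or 2.25 ppm. They stayed on it for 5 weeks, and the labels used here do not give the selenium content of the diet before the addition. The labels name no allele or drug in any group, and tissue and added selenium are the differences they give between groups. Each of the 8 groups of tissue and diet had 3 libraries, 24 in all, and the letters a, b and c name the libraries of a group by the order of their columns. The 3 diets with 0.1, 0.4 and 2.25 ppm are called supplemented below. Selenium, a trace element, is the source of the selenocysteine in selenoproteins.

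Cytochrome P450 enzymes oxidise drugs, steroids and bile acids in the endoplasmic reticulum of hepatocytes, and they need electrons, heme and a supply of new transcripts. Por is the reductase that passes electrons from NADPH to microsomal P450 enzymes, Cyb5a is cytochrome b5, a second electron carrier, and Alas1 is the rate-limiting enzyme of heme synthesis in liver. Nr1i2 encodes PXR and Nr1i3 encodes CAR, nuclear receptors that switch on P450 and conjugation genes in response to foreign compounds, and both bind DNA as dimers with RXR alpha, the product of Rxra. Ahr is the dioxin receptor, a transcription factor that induces the Cyp1 genes, and Hnf4a is a nuclear receptor that maintains hepatocyte gene expression.

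In the mm10 build (GENCODE M21), Por lies at chr5:135670033-135735326 (plus strand), Alas1 at chr9:106233455-106248654 (minus strand), Nr1i2 at chr16:38248323-38294824 (minus strand) and Nr1i3 at chr1:171213970-171220701 (plus strand). Ahr lies at chr12:35497974-35535038 (minus strand), Rxra at chr2:27676440-27762957 (plus strand) and Hnf4a at chr2:163506808-163572910 (plus strand). RefSeq promoter windows of 300 bases, 250 before and 50 after a start site (build GRCm38.p6), were available for 6 of the 8 genes, and the windows of the 4 genes with the most negative log2 differences in 0 ppm livers are printed here. Capitals mark every match, on either strand, to the 8 motifs searched.
Por, chr5:135688895-135689194, plus strand: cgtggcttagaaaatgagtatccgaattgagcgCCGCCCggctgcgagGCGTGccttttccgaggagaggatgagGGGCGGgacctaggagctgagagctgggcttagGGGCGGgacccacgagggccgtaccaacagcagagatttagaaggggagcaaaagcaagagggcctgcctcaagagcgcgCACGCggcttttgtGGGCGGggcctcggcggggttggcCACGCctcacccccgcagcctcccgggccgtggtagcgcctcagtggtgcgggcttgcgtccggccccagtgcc
Nr1i3, chr1:171213720-171214019, plus strand: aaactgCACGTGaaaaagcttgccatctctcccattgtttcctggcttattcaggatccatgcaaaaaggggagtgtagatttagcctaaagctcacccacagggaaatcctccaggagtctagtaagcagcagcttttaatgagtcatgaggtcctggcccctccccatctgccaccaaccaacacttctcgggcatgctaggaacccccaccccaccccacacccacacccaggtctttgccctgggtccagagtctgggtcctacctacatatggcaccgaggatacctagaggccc
Nr1i2, chr16:38294775-38295074, minus strand: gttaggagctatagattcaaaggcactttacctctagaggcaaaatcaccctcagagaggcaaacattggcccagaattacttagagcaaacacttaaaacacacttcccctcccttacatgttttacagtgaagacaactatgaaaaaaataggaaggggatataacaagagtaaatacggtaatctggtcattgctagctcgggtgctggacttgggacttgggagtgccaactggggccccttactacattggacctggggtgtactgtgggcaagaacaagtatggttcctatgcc
Alas1, chr9:106247905-106248204, minus strand: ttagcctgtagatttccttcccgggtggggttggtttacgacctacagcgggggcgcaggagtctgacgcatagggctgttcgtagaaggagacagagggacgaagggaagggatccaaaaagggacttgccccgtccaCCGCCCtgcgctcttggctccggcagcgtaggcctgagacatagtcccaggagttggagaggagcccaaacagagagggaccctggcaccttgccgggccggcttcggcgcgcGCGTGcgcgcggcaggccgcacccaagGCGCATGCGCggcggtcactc

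The 8 motifs were the PAR bZIP site as TTATGTAA or TTACGTAA, the E-box CACGTG, the AHR core GCGTG, the nuclear receptor half-site AGGTCA, the HNF4A site CAAAGTCCA, the GC box GGGCGG and the NRF1 half-site GCGCATGC. The Por window held 4 GC boxes, which 35.7% of the 32851 windows searched hold at least once, and 3 AHR cores, which 32.4% hold. The Nr1i3 window held 1 E-box, found in 7.15% of windows. The printed Alas1 window held 2 overlapping NRF1 half-sites on opposite strands, a motif in 2.71% of windows, with 1 AHR core and 1 GC box. Another Alas1 window, which overlaps it and is not printed, held the same NRF1 half-sites and AHR core and no GC box. No match was found in the Nr1i2 window, and neither form of the PAR bZIP site, present in 0.938% and 0.119% of windows, was found in any of the members' windows. These matches describe the letters only.

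Values are the authors' normalized reads, log2 differences carry their standard error (SE), and p-values are from limma, adjusted over every gene in the fit and called at 0.05. The depth on genes was 11.54 to 18.44 M reads per liver library and 12.94 to 17.83 M per brain library. Tissue labels fitted their markers: Alb, the gene of serum albumin, had 800400 to 1494000 normalized reads in liver libraries and 0 to 71.4 in brain libraries, and Snap25, a synaptic protein of neurons, had 21790 to 26290 in brain libraries and 0 to 8.53 in liver libraries. Liver library c of the 0 ppm diet stood apart from a and b for several of the 8 genes, so results that rest on it are also given without it. Among brain libraries, 0 ppm a and 0.1 ppm b were rich in pituitary hormone transcripts, with summed levels of 89170 and 52970. In whole tissue, fewer cells of a type and less RNA per cell cannot be told apart.

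At 0 ppm against the supplemented diets Por, Nr1i3 and Nr1i2 fell in liver, 3 of the 8 genes, where 4.41% of 18945 genes tested fell. Por was the most reduced, to 0.407 of the supplemented level, with Nr1i3 at 0.578 and Nr1i2 at 0.668. None of the 8 rose. The libraries at 0 ppm lay below all 9 supplemented libraries for 2 genes, Por and Nr1i3, a separation shown by 3.49% of genes. Over the 8 genes the median log2 difference was -0.44, and over all genes -0.0001.

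**Figure D1:**
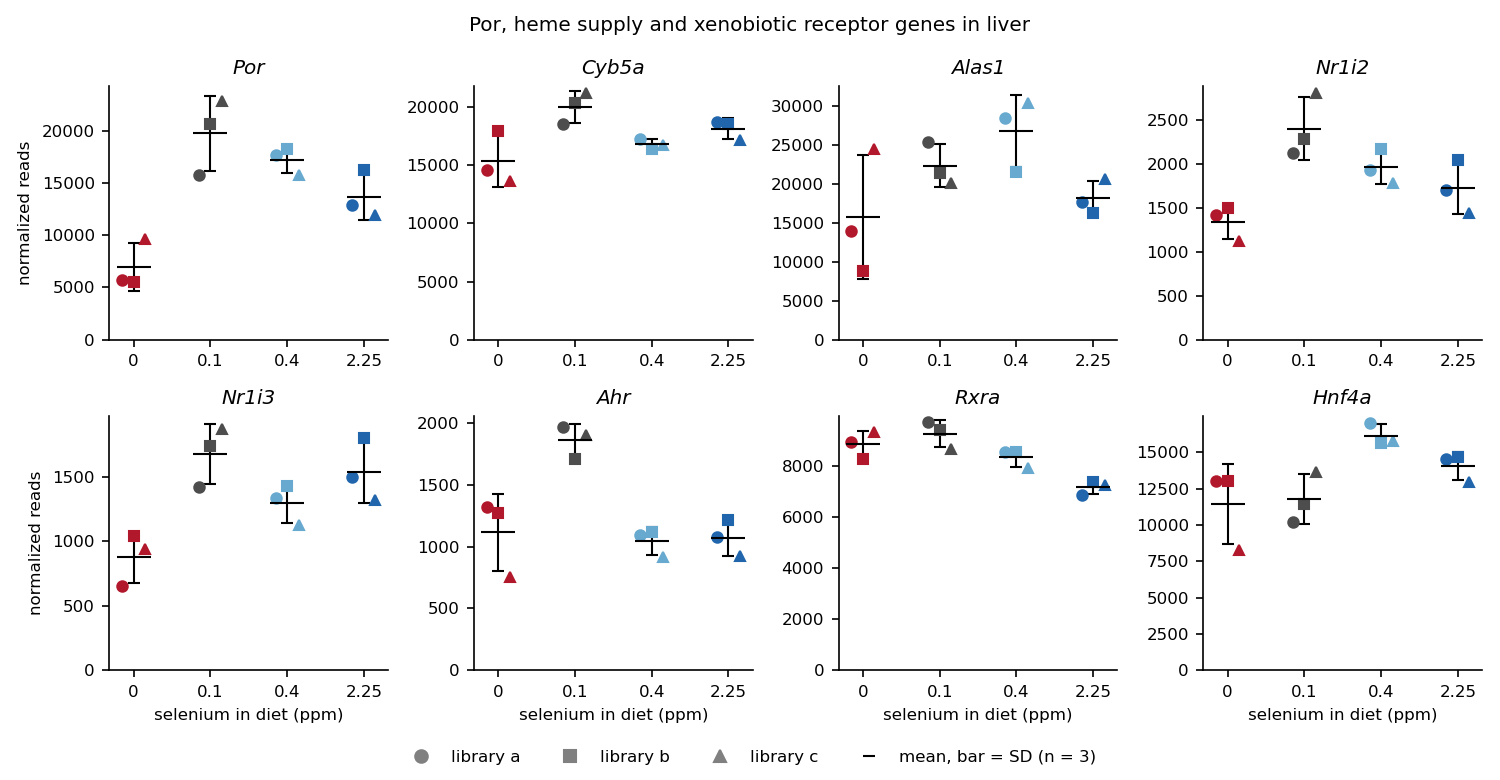
Normalized reads of each gene (vertical axis) in liver by selenium in the diet in ppm (horizontal axis); points are libraries, horizontal lines are means and bars are SD over 3 libraries. Por and Nr1i3 at 0 ppm lie below every supplemented library, Ahr at 0.1 ppm lies above every other library, and Rxra at 2.25 ppm lies below every other library.

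Por, the electron donor, had 5747, 5541 and 9625 normalized reads in livers a, b and c at 0 ppm, against 11900 to 22800 with a median of 16230 in the 9 supplemented livers. All 3 0 ppm livers were low and the groups did not overlap, with c nearest to the supplemented range. The log2 difference was -1.30 (SE 0.16, adjusted p = 0.000336), and -1.55 without liver c (adjusted p = 1.02e-05). Across the diets Por averaged 6971 ± 2300 at 0 ppm, 19740 ± 3590 at 0.1 ppm, 17220 ± 1310 at 0.4 ppm and 13680 ± 2270 at 2.25 ppm (SD, n = 3 each). The highest mean was at 0.1 ppm. Set against 0.1 ppm alone, the log2 difference at 0 ppm was -1.53 (SE 0.19, adjusted p = 0.000559). Por was not called at 2.25 ppm against 0.1 ppm, but passed when the 0 ppm liver c was left out of the shared fit (adjusted p = 0.0253).

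Cyb5a, the second electron carrier, had 14530, 17950 and 13640 normalized reads at 0 ppm, against 16390 to 21200 with a median of 18490 in supplemented livers. Library b of the 0 ppm livers lay inside the supplemented range and the other pair below it, and the log2 difference of -0.26 (SE 0.08) missed the threshold (adjusted p = 0.0833). Against 0.1 ppm alone, where the livers had 18490, 20290 and 21200, the 0 ppm livers were all lower and the log2 difference of -0.39 (SE 0.10) passed (adjusted p = 0.0371). That call was lost in 13 of 20 alternatives, including quantile normalization (-0.25, adjusted p = 0.146). Among fits that left out a library, it failed without a or c of the 0 ppm livers, without b or c of the 0.1 ppm livers, without any of those at 0.4 ppm, and without a or b of those at 2.25 ppm (adjusted p = 0.0502 to 0.143). Without the 0 ppm liver b, Cyb5a also passed against the supplemented diets (adjusted p = 0.0108).

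Among the 10 genes that carry electrons to P450 enzymes or assist them, 2 fell and 1 rose at 0 ppm against the supplemented diets, at a background of 6.61% called in either direction, with a median log2 difference of 0.04. Besides Por, Fdx1, the ferredoxin that serves mitochondrial P450 enzymes, fell by 0.41 (SE 0.08, adjusted p = 0.00871). Cyb5b, the cytochrome b5 of the outer mitochondrial membrane, rose by 0.45 (SE 0.10, adjusted p = 0.012). In the comparison of 2.25 with 0.1 ppm, 1 of the 10 was called, where 7.85% of all genes were. It was Cyb5r1, a cytochrome b5 reductase, which fell by 0.56 (SE 0.16, adjusted p = 0.0448).

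Alas1, which sets the pace of heme synthesis, had 13930, 8764 and 24460 normalized reads in livers a, b and c at 0 ppm, against 16220 to 30260 with a median of 21390 in supplemented livers. Livers a and b lay below every supplemented library and c lay above the supplemented median. Over all 3 the log2 difference of -0.61 (SE 0.22) missed the threshold (adjusted p = 0.118). Without liver c it was -0.99 (adjusted p = 0.00178), so that library decides the call. Alas1 averaged 15720 ± 8000 at 0 ppm, 22290 ± 2720 at 0.1 ppm, 26700 ± 4620 at 0.4 ppm and 18150 ± 2230 at 2.25 ppm (SD, n = 3 each), and no diet differed from 0.1 ppm past the threshold with all libraries. Without liver c, 0 ppm against 0.1 ppm also passed (-1.01, adjusted p = 0.00476).

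None of the 13 heme synthesis genes, Alas1 included, passed the test at 0 ppm against the supplemented diets by limma (median log2 difference -0.06). Of the 13, however, 7 had an unadjusted p under 0.05, where 20.2% of all genes had, and edgeR called 2. Alas2, the form of the first enzyme used by red cell precursors, had 2210, 2533 and 1911 normalized reads at 0 ppm, against means of 2251 at 0.1 ppm, 2219 at 0.4 ppm and 2440 at 2.25 ppm. Its log2 difference was -0.06 (SE 0.08, adjusted p = 0.756). Abcb10, a mitochondrial transporter needed for heme synthesis, rose by 0.37 at 2.25 ppm against 0.1 ppm (SE 0.08, adjusted p = 0.0139). Of 5 measured genes of heme breakdown and export, none was called at 0 ppm against supplemented by limma or edgeR and 0 had an unadjusted p under 0.05, and at 2.25 ppm against 0.1 ppm Hmox2, the constitutive heme oxygenase, fell by 0.40 (SE 0.08, adjusted p = 0.00803). Hmox2 also fell at 0 ppm against 0.1 ppm alone (-0.34, SE 0.08, adjusted p = 0.0221), and was uncalled at 0.4 ppm (-0.25, SE 0.08, adjusted p = 0.129). Hmox1, the inducible heme oxygenase, averaged 401.8 ± 109 at 0 ppm, 381.7 ± 163 at 0.1 ppm, 551.3 ± 68.5 at 0.4 ppm and 672.7 ± 166 at 2.25 ppm, with no call at 0 or 2.25 ppm.

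Nr1i3, which encodes CAR, had 650.9, 1039 and 937.7 normalized reads at 0 ppm, against 1129 to 1871 with a median of 1430 in supplemented livers. All 3 0 ppm livers lay below the supplemented range. The log2 difference was -0.79 (SE 0.13, adjusted p = 0.00316), and -0.85 without liver c (adjusted p = 0.00423). Nr1i3 averaged 876 ± 201 at 0 ppm, 1680 ± 230 at 0.1 ppm, 1299 ± 154 at 0.4 ppm and 1540 ± 244 at 2.25 ppm (SD, n = 3 each). The 3 supplemented groups overlapped one another.

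Nr1i2, which encodes PXR, had 1422, 1496 and 1123 normalized reads at 0 ppm, against 1443 to 2808 with a median of 2045 in supplemented livers. Liver b of the 0 ppm group overlapped the supplemented range, and livers a and c lay below it. The log2 difference was -0.58 (SE 0.12, adjusted p = 0.00799). It kept its direction but passed the threshold neither without a filter on low values (adjusted p = 0.0507) nor without the mean-variance trend (adjusted p = 0.0611). At 2.25 ppm Nr1i2 had 1702, 2045 and 1443 normalized reads, all below the 2125, 2286 and 2808 at 0.1 ppm, and the log2 difference of -0.48 (SE 0.14) lay just short of the threshold (adjusted p = 0.0531). It passed when 0 ppm b, 0 ppm c or 2.25 ppm b was left out (adjusted p = 0.0257 to 0.0466), and with a filter at 4, quantile normalization, TMM scaling or edgeR (0.04 to 0.0498).

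Against 0.1 ppm alone, 5 of the 8 genes fell at 0 ppm, where 4.31% of genes fell: Por, Nr1i3, Nr1i2, Ahr and Cyb5a. In these 5 genes every 0 ppm liver lay below every 0.1 ppm liver. That separation comes from the same values as the calls, and its share over all genes was not counted. Nr1i3 differed by -0.96 (SE 0.16, adjusted p = 0.00406) and Nr1i2 by -0.84 (SE 0.14, adjusted p = 0.00353). This comparison shares its 0 ppm livers with the one against all supplemented diets. Over the 4 diets together, 5 of the 8 genes differed somewhere (Por, Nr1i3, Nr1i2, Ahr and Rxra), against 10.9% of all genes.

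**Figure D2:**
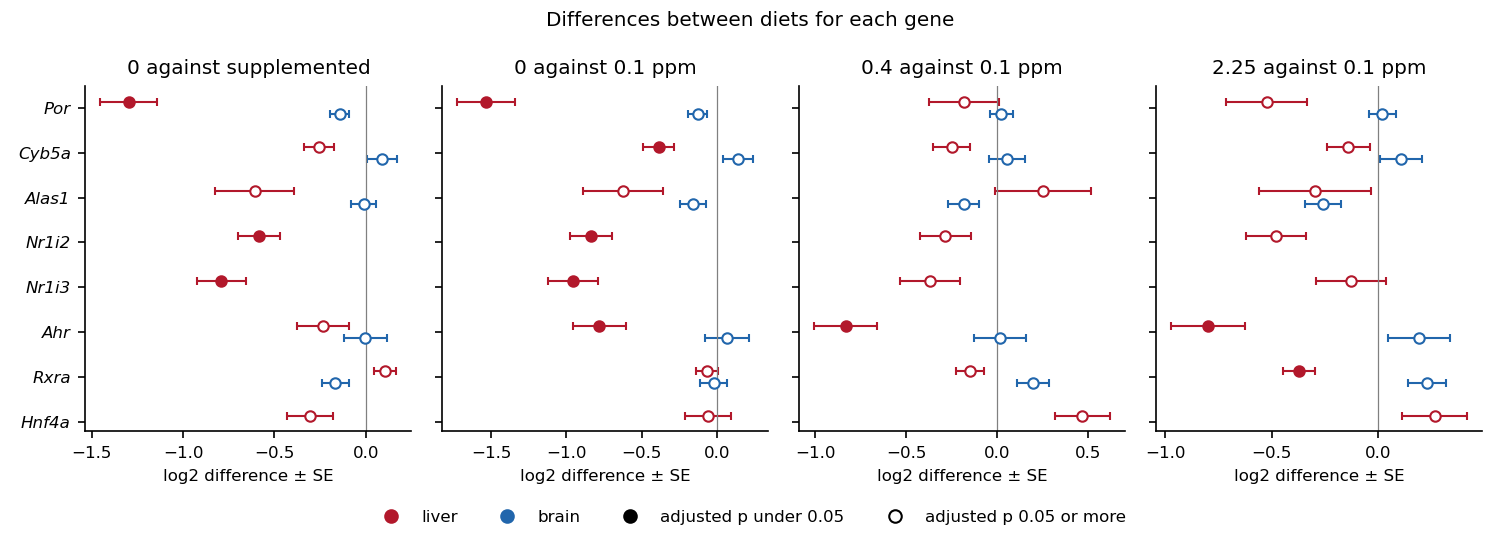
Log2 differences (horizontal axis, bars are SE) of each gene (vertical axis) in liver and brain for 4 comparisons of diets; filled points passed an adjusted p of 0.05. Filled points occur in liver and not in brain, and they all lie left of 0; Nr1i2, Nr1i3 and Hnf4a are left out for brain, where they were at or near 0 reads.

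Known target genes of CAR and PXR were described as a list of 29, of which 27 were measured. Against the supplemented diets 6 fell and 1 rose at 0 ppm, where 4.41% of all genes fell and 2.2% rose, and 20 did not pass, with a median log2 difference of -0.19. Cyp2b10, the classic CAR target, had 1469, 3363 and 830.7 normalized reads at 0 ppm, against 3501, 5426 and 7884 at 0.1 ppm, with means of 4705 at 0.4 ppm and 6779 at 2.25 ppm. Its log2 difference from the supplemented diets was -1.78 (SE 0.31, adjusted p = 0.00334), and the 0 ppm livers lay below all others. Sult1d1, a sulfotransferase, had 2120, 2458 and 2484 normalized reads at 0 ppm, against means of 5373, 5319 and 6275 at 0.1, 0.4 and 2.25 ppm (log2 difference -1.25, SE 0.11, adjusted p = 3.24e-05).

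Slco1a4, an organic anion uptake transporter, fell by 1.12 (SE 0.18, adjusted p = 0.00266), and Tsku, a secreted protein made in liver, by 0.54 (SE 0.11, adjusted p = 0.00809). Abcb1a, a drug efflux pump, and Cyp2a5, which oxidises nicotine and coumarin, also fell, and Ugt2b35, a glucuronosyltransferase, rose by 0.34 (SE 0.09, adjusted p = 0.0296). Cyp3a11, the main PXR target among the P450 genes, had 87690, 105600 and 60690 normalized reads at 0 ppm, against means of 103600, 87330 and 100500 at 0.1, 0.4 and 2.25 ppm. Its log2 difference of -0.23 (SE 0.14) did not pass (adjusted p = 0.428), and the groups overlapped. Reads of the Cyp2 and Cyp3 genes can be split among near-identical copies, so their values are uncertain. Between 2.25 and 0.1 ppm 2 of the 27 fell, where 7.85% of all genes were called in either direction: Cyp2a5 by 0.76 (SE 0.10, adjusted p = 0.000672) and Abcb1a by 0.84 (SE 0.24, adjusted p = 0.0496).

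**Figure D3:**
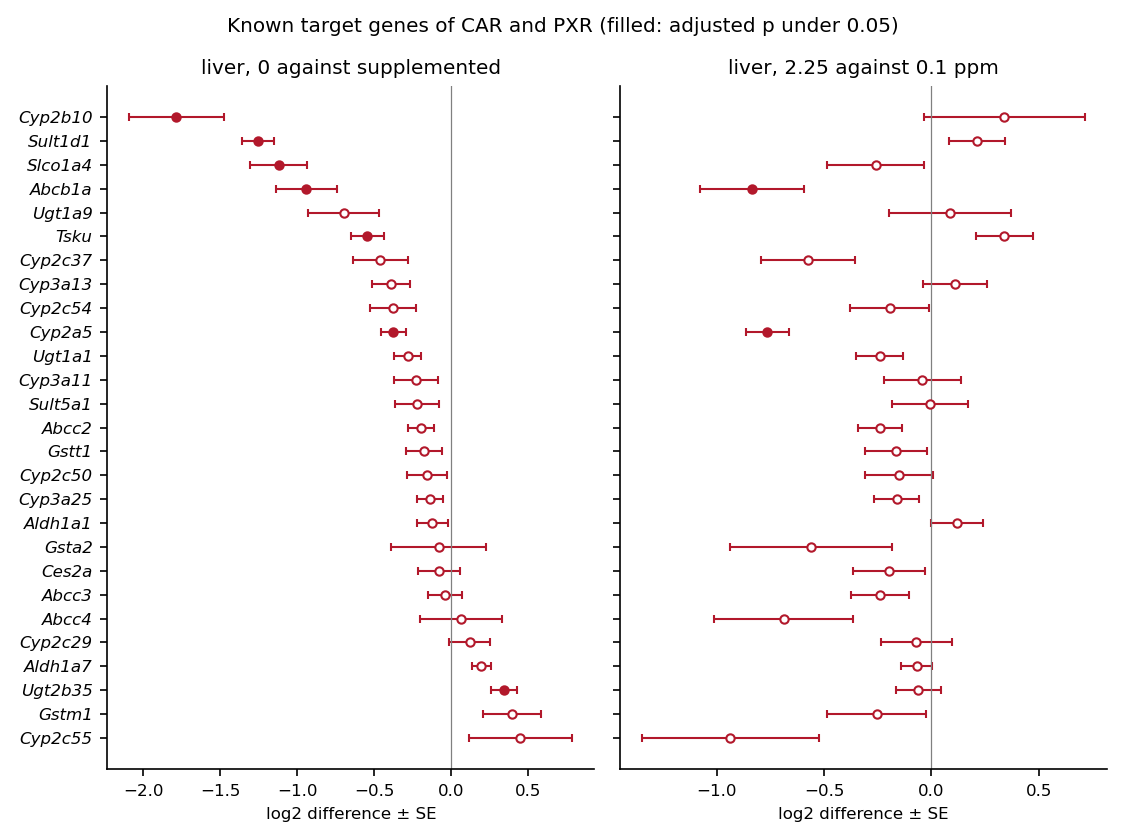
Log2 differences (horizontal axis, bars are SE) in liver of 27 known CAR and PXR target genes (vertical axis), for 0 ppm against the supplemented diets and for 2.25 against 0.1 ppm; filled points passed an adjusted p of 0.05. At 0 ppm 6 genes passed below 0 and 1 above, and at 2.25 ppm 2 passed, both below 0.

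Of the 13 proteins that retain CAR and PXR in the cytoplasm or act as their coregulators, none was called by limma at 0 ppm against the supplemented diets. At an unadjusted p under 0.05, 4 of the 13 passed, where 20.2% of all genes did, and edgeR called 1. At 2.25 ppm against 0.1 ppm 2 of the 13 rose and 3 fell, where 4.23% of all genes rose and 3.62% fell. Ppargc1a, a coactivator that also induces Alas1, had 170.7, 124.2 and 157.5 normalized reads at 2.25 ppm, against 479.6, 653.8 and 561.7 at 0.1 ppm, and fell by 1.90 (SE 0.19, adjusted p = 0.000123). Its levels were also low at 0.4 ppm (156.1, 120.4 and 132.9) and at 0 ppm (197.6, 185.1 and 119.4), so that the 0.1 ppm livers stood above all others. Foxo1, a transcription factor inhibited by insulin that binds CAR, fell by 0.98 at 2.25 ppm (SE 0.11, adjusted p = 0.000212), and Egfr, whose signalling holds CAR in the cytoplasm, by 0.92 (SE 0.20, adjusted p = 0.0114). Hsp90ab1, a chaperone of both receptors, rose by 0.81 (SE 0.18, adjusted p = 0.0159). Foxo1 was also lower at 0 and at 0.4 ppm than at 0.1 ppm (-0.73 in each, SE 0.11, adjusted p = 0.00142 and 0.00608).

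Ahr was highest at 0.1 ppm and fell at each of the other diets. It had 1967, 1710 and 1901 normalized reads at 0.1 ppm, and every other liver lay below them, which 1 of the 8 genes and 3.25% of all genes showed. At 2.25 ppm it had 1081, 1215 and 921.2, a log2 difference of -0.80 from 0.1 ppm (SE 0.17, adjusted p = 0.0128). At 0.4 ppm it had 1097, 1119 and 919.1, a log2 difference of -0.83 (SE 0.17, adjusted p = 0.0336), and it was the only one of the 8 called in that comparison, where 0.94% of genes fell. At 0 ppm it had 1317, 1273 and 751, a log2 difference of -0.78 (SE 0.17, adjusted p = 0.0173). The calls at 0.4 ppm and 2.25 ppm were lost without the filter (adjusted p = 0.121 and 0.0675) and without the trend (0.145 and 0.0686), and that at 0.4 ppm when any library of its 2 groups was left out (adjusted p = 0.0684 to 0.141). The call at 2.25 ppm was lost without 2.25 ppm c (adjusted p = 0.0608). That at 0 ppm was lost without the filter (0.0844), without the trend (0.0913), with only the 6 libraries compared (0.0778), and without a or c of the 0.1 ppm livers (0.0519 to 0.063).

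Set against all supplemented diets, Ahr at 0 ppm differed by -0.24 (SE 0.14, adjusted p = 0.396), and by 0.03 without liver c. None of the 10 measured AHR targets was called at 0 ppm against supplemented or against 0.1 ppm by limma or by edgeR, and 2 had an unadjusted p under 0.05 in each, where 20.2% and 19.3% of all genes had. Cyp1a2, the AHR target abundant in liver, averaged 11480 ± 2570 at 0 ppm, 14490 ± 2040 at 0.1 ppm, 11330 ± 1040 at 0.4 ppm and 12250 ± 185 at 2.25 ppm, with no call (adjusted p = 0.507 at 0 ppm and 0.38 at 2.25 ppm against 0.1 ppm). Of the 10, 1 rose at 2.25 ppm against 0.1 ppm, where 4.23% of all genes rose. It was Nfe2l2, which encodes NRF2, by 0.47 (SE 0.11, adjusted p = 0.023). Among 7 partners of the AHR protein, the chaperones Hsp90aa1 (1.47, SE 0.29, adjusted p = 0.00805) and Hsp90ab1 rose at 2.25 ppm, at the same background of 4.23%. None of the 7 was called at 0 ppm against supplemented by limma or edgeR (1 at an unadjusted p under 0.05, where 20.2% of all genes were).

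Rxra, the shared dimer partner, was lowest at 2.25 ppm, where it had 6856, 7353 and 7239 normalized reads, against 9706, 9385 and 8663 at 0.1 ppm. The 2.25 ppm livers lay below every other liver, which 1 of the 8 genes and 1.5% of all genes showed. The log2 difference was -0.37 (SE 0.08, adjusted p = 0.00873). With Ahr, this made 2 of the 8 genes that fell at 2.25 ppm against 0.1 ppm, where 3.62% of genes fell, and none rose. At 0 ppm Rxra had 8940, 8249 and 9302, and did not differ from supplemented livers past the threshold (log2 difference 0.11, SE 0.06, adjusted p = 0.37).

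Among 16 other RXR family members and partners, 1 rose and 1 fell at 0 ppm, where 6.61% of all genes were called. Thra, a thyroid hormone receptor, rose by 0.68 (SE 0.14, adjusted p = 0.0117), and Nr1h4, the bile acid receptor FXR, fell by 0.32 (SE 0.08, adjusted p = 0.0286). Ppara, the fatty acid receptor, fell at 2.25 ppm against 0.1 ppm by 0.56 (SE 0.11, adjusted p = 0.00894), and Nr1h3, an oxysterol receptor, rose by 0.26 (SE 0.07, adjusted p = 0.0372).

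Hnf4a passed the test in no comparison of diets with all libraries. It had 13050, 13010 and 8274 normalized reads at 0 ppm, against 10220 to 17050 with a median of 14580 in supplemented livers, with c the lowest of the 12 (log2 difference -0.30, SE 0.13, adjusted p = 0.184). At 0.4 ppm it had 17050, 15640 and 15760, all above the 10220, 11430 and 13620 at 0.1 ppm. That log2 difference of 0.47 (SE 0.15) missed the threshold (adjusted p = 0.147). It passed in 2 of 20 alternatives, and 1 of these left the 0 ppm liver c out of the shared fit (adjusted p = 0.0245).

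Among 19 HNF4A targets, 2 fell at 0 ppm, where 4.41% of all genes fell. They were Slc2a2, the hepatocyte glucose transporter, by 0.37 (SE 0.07, adjusted p = 0.00416), and Cyp7a1, the rate-limiting enzyme of bile acid synthesis, by 1.49 (SE 0.28, adjusted p = 0.00569). At 2.25 ppm against 0.1 ppm Pck1, the gluconeogenic carboxykinase, fell by 1.83 (SE 0.28, adjusted p = 0.0018). Of 13 other liver transcription factors, 1 rose and 1 fell at 0 ppm, where 6.61% of all genes were called, Nr2f2 (0.33, SE 0.09, adjusted p = 0.0477) and Foxa3 (-0.45, SE 0.11, adjusted p = 0.0263). At 2.25 ppm against 0.1 ppm 5 rose and 1 fell, where 4.23% and 3.62% of all genes did: Cebpb, which serves acute phase and gluconeogenic genes, fell by 1.09 (SE 0.15, adjusted p = 0.00104), and Foxa1, Foxa2 and Foxa3 were among those that rose.

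In mouse liver the PAR bZIP factors Dbp, Tef and Hlf, outputs of the circadian clock, are known to drive Por, Alas1 and Nr1i3, and REV-ERB alpha, the product of Nr1d1, is a repressor known to act on Alas1. Of 17 PAR bZIP and clock regulator genes, 8 fell and 1 rose at 0 ppm against supplemented, and 4 fell and 4 rose at 2.25 ppm against 0.1 ppm. Of all genes 4.41% fell and 2.2% rose at 0 ppm, and 3.62% fell and 4.23% rose at 2.25 ppm. Tef had 1834, 1885 and 4365 normalized reads in livers a, b and c at 0 ppm, against means of 4506, 4055 and 3472 at 0.1, 0.4 and 2.25 ppm. Its log2 difference of -0.69 (SE 0.19, adjusted p = 0.0449) was -1.10 without liver c (adjusted p = 1.13e-06). Liver c, the 0 ppm library with the highest Por and Alas1, was thus also the one with the highest Tef.

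Dbp had 428.4, 462.8 and 1672 normalized reads at 0 ppm, against means of 1085, 596.4 and 141.3 at 0.1, 0.4 and 2.25 ppm. Liver c was again the high one, and Dbp did not pass at 0 ppm (log2 difference 0.69, SE 0.38, adjusted p = 0.338). Hlf had 1104, 1228 and 1144 normalized reads at 0 ppm, against means of 1363, 1503 and 1511 at the supplemented diets in order of dose (log2 difference -0.32, SE 0.09, adjusted p = 0.0534). Nfil3, a repressor that competes for PAR bZIP sites, averaged 425.5 ± 175 at 0 ppm, 367.8 ± 96.1 at 0.1 ppm, 396.7 ± 72.9 at 0.4 ppm and 655.3 ± 142 at 2.25 ppm. It passed in neither comparison.

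Nr1d1 was the clock gene that rose at 0 ppm, with 1158, 2186 and 1130 normalized reads at 0 ppm, against means of 650.1, 529.6 and 151.1 at 0.1, 0.4 and 2.25 ppm (log2 difference 1.96, SE 0.22, adjusted p = 0.000246). Cry1, Cry2 and Per2 were among those that fell, Cry1 by 2.02 (SE 0.25, adjusted p = 0.000362). At 2.25 ppm against 0.1 ppm Dbp fell by 2.99 (SE 0.46, adjusted p = 0.00179) and Nr1d1 by 2.06 (SE 0.27, adjusted p = 0.000722), while Arntl, the clock activator BMAL1, rose by 3.06 (SE 0.47, adjusted p = 0.00181). Clock gene levels moved with diet beside Por and Nr1i3, and their part in those differences was not tested. Nor was their part in the levels of Alas1, which passed in no comparison of diets with all libraries. The labels used here do not give the time of day of feeding or collection.

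**Figure D4:**
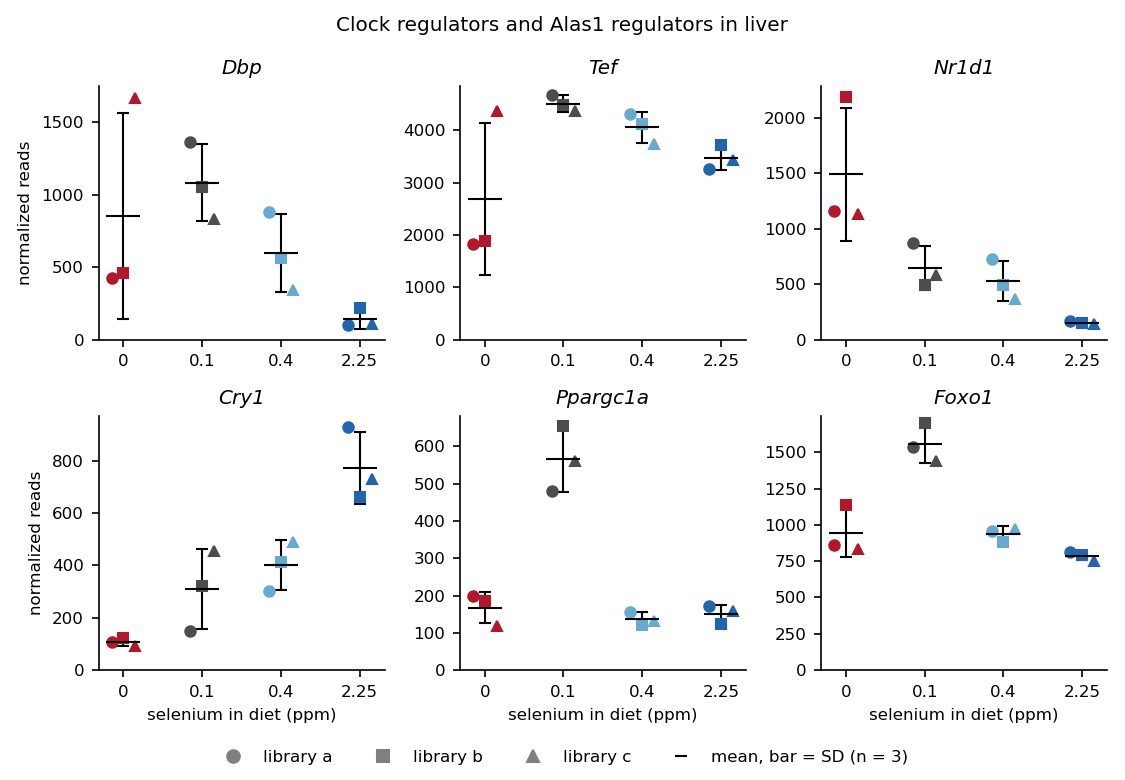
Normalized reads (vertical axis) in liver of 4 clock regulators and of the Alas1 regulators Ppargc1a and Foxo1 by selenium in the diet in ppm (horizontal axis); points are libraries, horizontal lines are means and bars are SD over 3 libraries. Library c at 0 ppm is the high one for Dbp and Tef, and Ppargc1a is highest in the 3 libraries at 0.1 ppm.

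Of 7 known regulators of Alas1, 1 rose at 0 ppm, Nr1d1, and none fell against the supplemented diets, where 6.61% of all genes were called. At 2.25 ppm against 0.1 ppm 4 fell, Ppargc1a, Foxo1, Nr1d1 and Nr1d2 (-0.83, SE 0.14, adjusted p = 0.00328), and none rose, where 7.85% of all genes were called, beside Alas1 itself at -0.30 (SE 0.26, adjusted p = 0.583). Ppargc1a and Foxo1 also fell against 0.1 ppm at 0 ppm (-1.77, adjusted p = 0.000258, and -0.73, adjusted p = 0.00142). They fell at 0.4 ppm too (adjusted p = 0.000272 and 0.00608), so their falls were not particular to 2.25 ppm. Nr1d1 rose at 0 ppm against 0.1 ppm (1.17, SE 0.27, adjusted p = 0.022).

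Several calls of genes outside the 8 rested on single libraries. For 0 ppm against supplemented, the calls of Fdx1, Cyp2a5, Tsku, Cyp7a1 and Foxa3 were lost without the 0 ppm liver a (adjusted p = 0.0581, 0.0756, 0.0657, 0.0527 and 0.178), that of Thra without b (0.0724), and those of Abcb1a and Cyb5b without either (0.0587 to 0.0978). Those of Nr1h4, Nr2f2 and Tef were lost in 5, 9 and 11 of the 12 fits that left out a library, Tef in all but that without 0 ppm c. For 2.25 against 0.1 ppm, the calls of Abcb10, Egfr, Hsp90ab1, Foxa1 and Nfe2l2 were each lost without the 2.25 ppm liver c and without at least a further library of these 2 diets, in 2, 2, 3, 4 and 5 of the 12 fits. Those of Nr1h3, Foxa3, Abcb1a and Cyb5r1 were lost in 7, 8, 9 and 10 of the 12 (adjusted p = 0.0506 to 0.161).

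Cell type and zone markers also moved with diet, read against 4.41% of all genes that fell and 2.2% that rose at 0 ppm. Hepatocyte markers, 10 of 11 measured, summed to 1351000 to 1611000 normalized reads at 0 ppm, against 1733000 to 2196000 in supplemented livers, with no overlap, and 2 of the 10 fell and 1 rose. Alb weighed most in this sum, with 800400 to 1494000 per liver library, and was not called (-0.41, SE 0.23, adjusted p = 0.363). The uncalled hepatocyte markers ranged from -0.80 for Tat to -0.06 for Ttr. Ass1 and Cps1 are in both this list and the periportal one. Periportal genes summed to 169600 to 218400 at 0 ppm, against 233600 to 330700, and 6 of 12 fell, led by Cps1 (-0.89, SE 0.11, adjusted p = 0.000457). Pericentral genes, from the zone where most P450 enzymes and CAR are found, summed to 167500 to 207900 at 0 ppm, against 204200 to 287100, and 1 of 11 was called, Lgr5, which rose. Endothelial markers summed to 4446 to 4878 at 0 ppm, against 5217 to 6105, and 2 of 8 fell, Flt1 and Stab2. Stellate cell markers summed to 4332 to 5145 at 0 ppm, against 4659 to 5870, and 2 of 7 fell, Hgf and Reln. The rest were split and uncalled: Ngfr (0.72), Col1a1 (0.59) and Pdgfrb (0.36) leaned up, Lrat (-0.34) and Dcn (-0.19) down. Bile duct markers summed to 1338 to 1924 at 0 ppm, against 712.7 to 1340, and 1 of 6 rose, Spp1. Their part in the results above was not tested. No defining marker of hepatocytes was at 0 in any liver library.

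The 8 genes were far more abundant in liver than in brain, and all 8 were called higher there, against 35.7% of 21889 genes. Averaged over 12 libraries each, Por had 14400 ± 5450 normalized reads in liver and 762 ± 44.1 in brain, 18.9 times more. The ratio was 47.6 for Cyb5a (17570 ± 2150 in liver, 369 ± 33.4 in brain), 38.5 for Alas1, 19.5 for Rxra and 12.6 for Ahr. Nr1i2 was covered by 9 reads in all 12 brain libraries together and Hnf4a likewise by 9, at most 2 and 3 in any library. Nr1i3 had 1 to 7 reads in a brain library. These levels are at or near the limit of counting, and a difference between diets was not detectable at this depth.

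**Figure D5:**
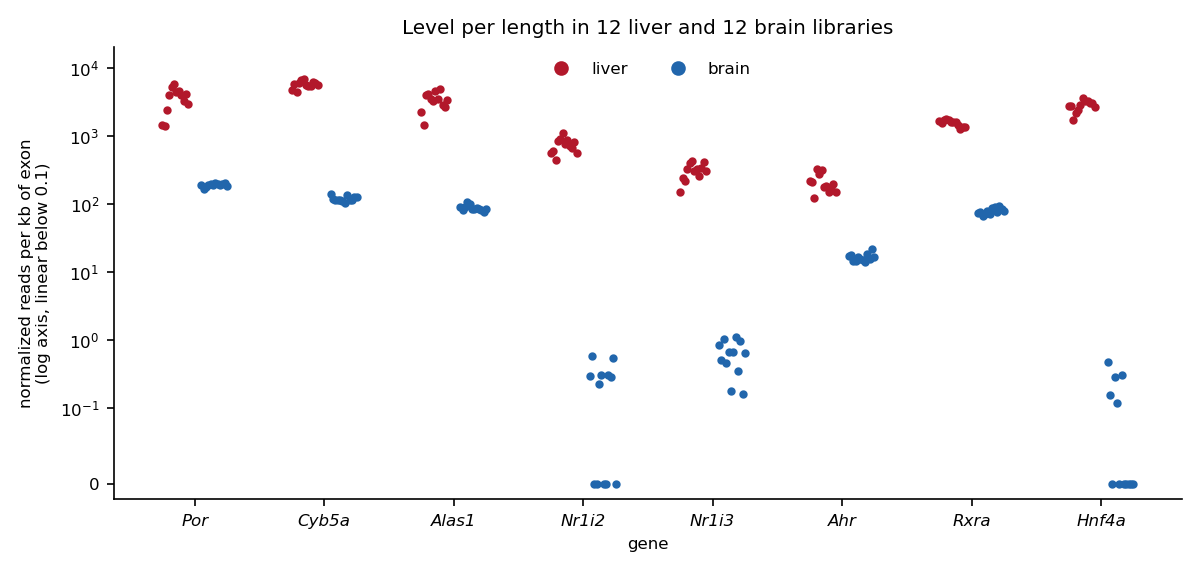
Level per length of each gene (horizontal axis) as normalized reads per kb of annotated exon (vertical axis, logarithmic, linear below 0.1) in 12 liver and 12 brain libraries; each point is a library. Every liver point lies above every brain point of its gene, and Nr1i2 and Hnf4a include brain libraries at 0.

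Per kb of exon, Cyb5a was the highest in liver (5660 ± 694 normalized reads per kb, SD over 12 libraries), ahead of Por (3580 ± 1360), Alas1 (3360 ± 982) and Hnf4a (2770 ± 514). Por, Alas1 and Hnf4a lay within each other's spread, and their order differed between diets. At 0 ppm Por (1730 ± 572, SD, n = 3) was below Alas1 (2550 ± 1300) and Hnf4a (2370 ± 570), while Cyb5a had the highest mean per kb at each of the 4 diets. Rxra (1540 ± 165) and Nr1i2 (730 ± 181) followed, and Nr1i3 (306 ± 82.9) and Ahr (207 ± 63.5) were the lowest, with ranges that overlapped. In brain the order per kb was Por (189 ± 11), Cyb5a (119 ± 10.7), Alas1 (87.1 ± 8.55), Rxra (78.7 ± 8.4) and Ahr (16.4 ± 2.13), and Alas1 and Rxra lay within each other's spread.

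In brain no diet changed any of the 7 genes tested past the threshold, by limma or by edgeR. Nr1i2 was too low in brain to be tested, and Nr1i3 and Hnf4a were tested at or near the limit of counting. The background was low too: 0.0189% of 21127 genes were called for 0 ppm against supplemented, 0.0284% for 0 against 0.1 ppm, 0.00947% for 0.4 against 0.1 ppm, 0.435% for 2.25 against 0.1 ppm and 0.0189% for any diet. At an unadjusted p under 0.05, 2, 0, 2, 2 and 1 of the 7 genes tested passed in these comparisons, and 5.55%, 6.95%, 8.08%, 13% and 9.46% of all genes. Por had 746.3, 659.2 and 716.7 normalized reads in brain at 0 ppm, against 741 to 816.7 in supplemented brains, a log2 difference of -0.14 (SE 0.05, adjusted p = 0.878). Rxra had 511.1, 461.9 and 434.8 at 2.25 ppm, against 384.5, 429.6 and 383.9 at 0.1 ppm, a log2 difference of 0.23 (SE 0.09, adjusted p = 0.282).

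Liver and brain differed in their response for 3 of the genes, by the test of the difference itself over 24 libraries. For 0 ppm against supplemented, the liver response minus the brain response of Por was -1.16 on the log2 scale (SE 0.18, adjusted p = 0.00179), 1 of 8 genes called where 1.98% of all genes were. For 2.25 against 0.1 ppm it was -0.60 for Rxra (SE 0.11, adjusted p = 0.00391) and -0.99 for Ahr (SE 0.24, adjusted p = 0.0322), 2 of 8 where 2.69% of all genes were called. Without the pair of pituitary-rich brain libraries the Ahr call was lost (-1.04, adjusted p = 0.0549), as it was without any of 7 single libraries, brain 0.1 ppm a or c, brain 2.25 ppm b, liver 0.1 ppm a or c, and liver 2.25 ppm a or c (adjusted p = 0.0519 to 0.0995). Without liver c at 0 ppm, Alas1 also differed between the tissues (-0.98, adjusted p = 0.00321), where over all libraries it gave -0.60 (SE 0.25, adjusted p = 0.284).

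The genes whose liver pattern was most like each of the 8 were sought by Pearson r of log2 values over the 12 liver libraries among 9030 well-expressed genes. The 12 libraries share 4 diets, so these r values describe likeness only. Closest to Por were Cdk18 (r = 0.98), a protein kinase, Igfbp4 (0.969), which binds insulin-like growth factors, and Mat1a (0.967), which makes S-adenosylmethionine in liver. Among the closest to Nr1i3 were Mfn2 (0.966) and Ndel1 (0.962), and closest to Nr1i2 were Atl2 (0.985), Gpt2 (0.962) and Wasl (0.96). Cyb5a ran with F13b (0.986), Hsd17b11 and Dpys, and Alas1 with Mertk (0.913), Slc43a2 and Fam20b. Ahr ran with Ell2 (0.945), Klf15 and Lclat1, Rxra with Parp10 (0.947), Vps50 and Dbp (0.942), and Hnf4a with Ncbp1 (0.91), Tmem248 and Tceb3.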

How the data were processed

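Per the labels' protocols, TRIzol was used for extraction and a TruSeq Stranded Total RNA kit for the libraries. In the submitters' processing notes the build is mm10 and the tools are RSEM 1.3.0, STAR 2.5.2b, limma 3.34.5, Trimmomatic 0.33 and bcl2fastq 2.17. The values the authors deposited are a normalized signal per gene, each library's reads times a single factor: 525456 of 525456 values (100%) were whole reads within 0.01, and every factor equalled that of the median-of-ratios method. That scaling sets liver and brain on a shared scale and can move levels between tissues.

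The main test was limma (version 3.58.1, R 4.3.3) on log2 values after adding a pseudocount of 1, with a mean-variance trend. Genes needed a value of 1 or more in 3 libraries, and the fit took all 12 libraries of a tissue together (24 for liver against brain), with Benjamini-Hochberg adjustment over all genes. Each result was also computed with other filters (none, 4), a pseudocount of 0.1, quantile and TMM scaling, no trend, only the 6 libraries compared, and leaving out each library. A count test on the recovered reads (edgeR 4.0.16, quasi-likelihood, TMM) was run as well and called 1372 liver genes for 0 ppm against supplemented, where limma called 1252. The fits were tested on simulated data. Columns carry no replicate number, and nothing says whether libraries come from separate animals, so p-values measure the spread between libraries, which may be technical. A count of 0 allows up to 3 reads; this floor covers counting error only.

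The 8 genes, the lists and the tests were chosen with earlier results of these data known. Named genes were the 8, 12 preset regulators and targets, marker genes and the 3 nearest genes by likeness. Each pathway list added up to 4 called genes with the smallest adjusted p in liver for 0 ppm against supplemented. It also added up to 4 for 2.25 against 0.1 ppm. Ugt2b35, Per2, Foxa2, Lgr5, Alb and Snap25 were named outside the rule. So were the markers Cps1, Ass1, Flt1, Stab2, Hgf, Reln, Spp1, Ngfr, Col1a1, Pdgfrb, Lrat, Dcn, Tat and Ttr. Some genes that the rule names are not reported here. Of the list genes, Flvcr1, Flvcr2, Cyp2b13, Sult2a1, Hnf4g, Tf and Ly6g were not matched. Leaving out the pituitary-rich brain libraries was chosen after seeing the data. Metabolite and microRNA data were not analysed here.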

Additional observations from a re-analysis of the deposited data

Results flagged for a closer look

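The response to diet differed between liver and brain for 3 of the genes above the counting floor in both tissues, by the test of that difference. For 0 ppm against the supplemented diets, Por differed by -1.16 on the log2 scale, liver minus brain (-1.30 in liver, -0.14 in brain). For 2.25 against 0.1 ppm, Rxra differed by -0.60 (-0.37 in liver, 0.23 in brain) and Ahr by -0.99 (-0.80 in liver, 0.19 in brain). The brain responses themselves passed no threshold.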

How the results depend on the processing

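No paired analysis was possible because the columns carry no replicate numbers. In liver, the counts of the 8 genes called were 3 for 0 ppm against supplemented and 5, 1 and 2 for 0, 0.4 and 2.25 ppm against 0.1 ppm, with 5 for any diet. Without the filter on low values they became 3, 0 and 1 against 0.1 ppm and 2 for any diet, and without the mean-variance trend 3, 0 and 1, and 1 for any diet. With only the 6 libraries compared, 3 were called at 0 ppm and 2 at 0.4 ppm against 0.1 ppm. Leaving out a library in turn gave 3 to 4 for 0 ppm against supplemented, 4 to 7 for any diet, and 3 to 5 at 0 ppm, 0 to 2 at 0.4 ppm and 1 to 4 at 2.25 ppm against 0.1 ppm. The liver minus brain counts became 1 to 2 for both contrasts with a library left out, and that for 2.25 against 0.1 ppm became 1 without the trend and 1 without the pituitary-rich brain libraries. The cause was not tested.

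Por and Nr1i3 at 0 ppm against supplemented and against 0.1 ppm, and Rxra at 2.25 against 0.1 ppm, passed in every alternative run. Quantile normalization turned the uncalled differences at 0 against 0.1 ppm to 0.029 for Rxra and 0.0703 for Hnf4a. With a library left out, Hnf4a at 0 against 0.1 ppm ranged from -0.17 to 0.159, and Ahr at 0 ppm against supplemented from -0.379 to 0.0257. Without the 0 ppm liver c, Por (adjusted p = 0.0253) and Nr1i2 (0.0285) passed at 2.25 against 0.1 ppm. Over all genes, the liver counts of 1252, 1161, 282 and 1487 called became 488, 404, 41 and 751 without the trend; without the filter those for 0 ppm against supplemented and for 0 and 0.4 against 0.1 ppm became 831, 646 and 103; with only the 6 libraries those for 0 and 0.4 against 0.1 ppm became 428 and 623. The liver minus brain count for 0 ppm, 433, became 287 with quantile normalization, 256 without the trend and 185 without the pituitary-rich libraries. With a library left out it ranged from 200 (without brain 0 ppm a) to 818 (without liver 0 ppm c), and that for 2.25 against 0.1 ppm, 589, from 330 to 747. Any-diet calls in liver, 2056, became 1140 without the filter, 583 without the trend and 1217 to 2504 with a library left out. Leaving out a library gave 535 to 1509 for 0 ppm against supplemented, and 527 to 1450, 44 to 504 and 692 to 1820 for 0, 0.4 and 2.25 against 0.1 ppm; in brain, the 92 genes called for 2.25 against 0.1 ppm became 0 to 149. The brain floor of 3 reads limits Nr1i2, Nr1i3 and Hnf4a.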
